A study of Mus musculus with 10 samples.

Results

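Messenger RNA for 10 genes of the mesenchymal state was followed in 10 mouse tumors, 5 of which had been grown from cancer cells carrying a guide RNA against Cda. The genes were listed by name, as members of a known program: the transcription factors Snai1, Snai2, Zeb1, Zeb2, Twist1, Twist2 and Prrx1, and the effector genes Vim, Cdh2 and S100a4. All 10 were among the 37417 genes of the deposited count table, and all 10 were among the 15299 genes that had enough counts to be tested. None of them separated the sgCda tumors from the sgNT tumors at an adjusted p under 0.05. Their differences between single tumors ranged from 1.31-fold for S100a4 to 33.7-fold for Twist1, or 8.40-fold for Twist1 without sgCda replicate 4, where it had 4 reads.

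The tumors were subcutaneous (s.c.) Panc02 tumors, that is, grafts of a mouse pancreatic cancer cell line placed under the skin of C57BL/6J mice that were 12 weeks old and are labelled as wild type. In both groups the Panc02 cells had been given a doxycycline-inducible Cas9 and a guide vector kept by puromycin selection. The guide was nontargeting in the sgNT group (5 tumors) and directed at Cda, the gene for cytidine deaminase, in the sgCda group (5 tumors). All tumors were collected at day 16 after injection, and no further treatment is given in the labels. The paper describes selection of transduced cells and also isolation of single-cell clones, and it does not state which of these made the sequenced tumors. The host cells of each tumor keep Cda. RNA was made from the whole tumor, so each value is an average over cancer and host cells, and fewer cells of a type cannot be told apart from less RNA per cell.

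Between 28051907 and 39484964 reads per tumor were assigned to genes. One library, sgCda replicate 4, had the fewest assigned reads, the largest share of reads outside annotated genes (18.4%) and the largest mitochondrial share (5.82%, against 3.47% to 3.81% in the other 9 tumors). Levels are given as CPM, the reads of a gene relative to the size of its library after scaling with TMM factors. The targeted gene itself did not separate the labels, with Cda at a mean of 12.1 ± 1.76 CPM for sgNT against 9.77 ± 2.34 CPM for sgCda (SD, 5 tumors each). Its log2 fold change was -0.30 (SE 0.17, edgeR quasi-likelihood test, unadjusted p = 0.0964, adjusted p = 0.9996), and the groups overlapped. A gene cut by Cas9 can still be transcribed, so this count checks the labels only weakly.

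Epithelial-mesenchymal transition is a change of state in which epithelial cells loosen their junctions and take on the shape and motility of mesenchymal cells. The SNAI and ZEB zinc-finger proteins bind short E-box sequences and repress epithelial genes such as Cdh1, which encodes E-cadherin. TWIST proteins are basic helix-loop-helix factors and Prrx1 is a homeodomain factor, and both kinds are also well known from embryonic mesenchyme and from connective tissue cells. Vim, Cdh2 and S100a4 are common readouts of the mesenchymal state, and fibroblasts, endothelial cells and leukocytes use several of the 10 genes as well.

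The promoter sequences of 4 of the factors are shown because they include the only E-box found and the pair of genes that varied most closely together. Each is the 250 bases before the RefSeq transcription start on build GRCm38.p6, written 5′ to 3′ on the gene's strand, and capitals mark a CAGGTG or CACCTG E-box. These are the windows chr2:167537945-167538194 (plus strand) for Snai1, chr12:33957421-33957670 (plus strand) for Twist1, chr1:91801211-91801460 (plus strand) for Twist2 and chr1:163313651-163313900 (minus strand) for Prrx1.
Snai1: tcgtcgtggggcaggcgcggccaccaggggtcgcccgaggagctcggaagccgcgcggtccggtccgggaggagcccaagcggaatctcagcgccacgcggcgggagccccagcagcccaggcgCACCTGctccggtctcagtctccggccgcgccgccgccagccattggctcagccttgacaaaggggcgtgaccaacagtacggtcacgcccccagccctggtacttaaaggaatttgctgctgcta
Twist1: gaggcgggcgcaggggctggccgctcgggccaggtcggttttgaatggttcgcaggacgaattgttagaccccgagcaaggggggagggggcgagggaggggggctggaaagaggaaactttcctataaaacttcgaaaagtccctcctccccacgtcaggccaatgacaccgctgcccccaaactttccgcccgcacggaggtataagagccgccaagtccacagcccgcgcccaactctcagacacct
Twist2: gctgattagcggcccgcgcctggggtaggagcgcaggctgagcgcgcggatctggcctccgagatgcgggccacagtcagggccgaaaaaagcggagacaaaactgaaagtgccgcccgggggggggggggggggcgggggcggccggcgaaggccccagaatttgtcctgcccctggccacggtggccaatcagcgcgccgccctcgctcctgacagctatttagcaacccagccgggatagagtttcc
Prrx1: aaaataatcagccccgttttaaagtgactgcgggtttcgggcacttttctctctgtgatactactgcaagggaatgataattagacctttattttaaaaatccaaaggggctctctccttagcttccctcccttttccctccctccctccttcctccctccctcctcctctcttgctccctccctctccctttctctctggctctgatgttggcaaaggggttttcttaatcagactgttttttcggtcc

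RefSeq windows were matched for 7 of the 10 genes (Snai1, Twist1, Twist2, Prrx1, Vim, Zeb2 and S100a4). The Snai1 window held 1 E-box of the letters CACCTG, starting 126 bases before the transcription start. The other 6 genes had neither CAGGTG nor CACCTG, read on both strands, nor the wider CANNTG in which these letters are contained. Over 32850 such windows of the genome, 17.2% held CAGGTG or CACCTG and 66.2% held CANNTG. The windows of Snai1, Twist2 and Twist1 were rich in CpG dinucleotides, with 27, 23 and 18 of them, against a median of 6 over all windows and 4 in the Prrx1 window. A match of letters is a description of the window and was not tested as a binding site.

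Snai1 (ENSMUSG00000042821, GRCm38 chromosome 2, 167538195 to 167542814) encodes Snail, a zinc-finger repressor of Cdh1. It was measured at 25.5, 25.4, 31.6, 27.6 and 30.4 CPM in sgNT replicates 1 to 5, and at 19.1, 27.1, 17.9, 28.1 and 29.7 CPM in sgCda replicates 1 to 5. The sgCda replicates 1 and 3 were below every sgNT tumor, and the other 3 sgCda tumors were inside the sgNT range. Expressed as sgCda over sgNT, the log2 fold change came to -0.20 (SE 0.15, 95% CI from -0.53 to 0.12, edgeR unadjusted p = 0.192, adjusted p = 0.9996).

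Snai2 (ENSMUSG00000022676, GRCm38 chromosome 16, 14705852 to 14709385), which encodes the related repressor Slug, was the lower of the pair. Its levels were 8.80, 6.54, 6.36, 8.64 and 7.84 CPM in the sgNT tumors and 8.84, 7.34, 6.30, 7.94 and 9.78 CPM in the sgCda tumors. The groups overlapped, and the log2 fold change was 0.074 (SE 0.15, 95% CI from -0.25 to 0.40). Per kilobase of exon, Snai1 exceeded Snai2 by a mean log2 ratio of 2.20 ± 0.30 for sgNT and 1.90 ± 0.31 for sgCda (SD, 5 tumors each). All 5 sgCda tumors lay below the sgNT mean of this ratio, but the difference of -0.30 did not pass an exact permutation test (two-sided p = 0.151, adjusted p = 0.603 over 4 ratios; the smallest p that 5 against 5 tumors allow is 0.00794).

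Zeb1 and Zeb2 encode large zinc-finger repressors that bind paired E-boxes and share corepressors. Antisense transcripts overlap 657 exonic bases of Zeb2 and 198 of Zeb1. If strand was not used in counting, reads there were left out where the authors' annotation held the antisense genes, and mixed where it did not. Zeb1 (ENSMUSG00000024238) was present at 113, 113, 81.6, 74.1 and 99.7 CPM among sgNT tumors and at 111, 93.4, 59.7, 123 and 89.4 CPM in sgCda tumors. The highest and the lowest of the 10 tumors were both in the sgCda group, and the log2 fold change was -0.016 (SE 0.18, 95% CI from -0.42 to 0.39). Zeb2 (ENSMUSG00000026872, GRCm38 chromosome 2, 44983632 to 45117395) had 235, 236, 225, 193 and 213 CPM among sgNT and 238, 221, 183, 243 and 226 CPM among sgCda tumors. It was among the steadiest of the 10 genes, with a 1.33-fold span over all tumors and a log2 fold change of 0.012 (SE 0.087, 95% CI from -0.18 to 0.20). Per kilobase, Zeb2 was above Zeb1 in 10 of 10 tumors, and the log2 ratio of Zeb1 to Zeb2 averaged -0.25 ± 0.20 for sgNT and -0.30 ± 0.24 for sgCda (SD, n = 5, exact permutation p = 0.730, adjusted p = 0.818).

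Twist2 (ENSMUSG00000007805, GRCm38 chromosome 1, 91801461 to 91848028), a basic helix-loop-helix factor of dermal and other connective tissue mesenchyme, had the smallest unadjusted p of the 10 genes. Its levels were 9.44, 9.67, 10.8, 11.9 and 9.30 CPM in the sgNT tumors and 9.22, 7.97, 9.29, 7.69 and 8.70 CPM in the sgCda tumors. Every sgCda tumor was below every sgNT tumor, but by a gap of 9.30 against 9.29 CPM between sgNT replicate 5 and sgCda replicate 3. With CPM of the plain library totals, and with counts divided by median-ratio size factors, these 2 tumors changed places and the groups overlapped, scalings that were added after the values had been seen. Relative to sgNT the log2 fold change stood at -0.25 (SE 0.11, 95% CI from -0.49 to -0.020), a difference of -16.1% with a 95% CI from -28.6% to -1.38%. The edgeR unadjusted p was 0.0358 and the adjusted p was 0.9996. Of all genes tested, 2.50% had an unadjusted p under 0.05 (0.954% with a lower level in sgCda), 0.601% had groups without overlap and 0.294% had every sgCda tumor below every sgNT tumor. The unadjusted p was above 0.05 when sgNT replicate 3 or 4 or sgCda replicate 2, 4 or 5 was left out (0.0536 to 0.0975). A transcript annotated on the opposite strand, Gm29100, overlaps 1477 exonic bases of Twist2, and the strand setting of the counting was not stated. If strand was not used, shared reads were left out where the authors' annotation held Gm29100, and mixed where it did not. Gm29100 was not analysed here.

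Twist1 (ENSMUSG00000035799, GRCm38 chromosome 12, 33957671 to 33959829), the close relative of Twist2 and a factor of cranial and limb mesenchyme, was one of the 3 most variable genes. Its levels were 1.45, 0.569, 1.24, 2.89 and 4.77 CPM among sgNT tumors and 2.01, 1.44, 2.88, 0.142 and 1.90 CPM in sgCda tumors. The value of sgCda replicate 4 rests on 4 reads, with an exact Poisson 95% interval from 0.0386 to 0.363 CPM that covers counting error only. This interval lies below the value of each of the other 9 tumors, but it overlaps the interval of sgNT replicate 2 (18 reads, 0.337 to 0.899 CPM). Its log2 fold change was -0.38, and the 95% CI from -1.81 to 1.05 allows a difference anywhere from -71.5% to 106% (SE 0.65, edgeR unadjusted p = 0.567). Without sgNT replicate 5, the tumor with the highest level, the log2 fold change was 0.13. No stretch of 50 bases is shared between the exons of Twist1 and Twist2, so reads of that length were told apart. The log2 ratio of Twist1 to Twist2 per kilobase averaged -1.56 ± 1.13 for sgNT and -1.77 ± 1.44 for sgCda (SD, n = 5, exact permutation p = 0.818), and it ran from -4.30 in sgCda replicate 4 to 0.010 in sgNT replicate 5.

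Prrx1 (ENSMUSG00000026586, GRCm38 chromosome 1, 163245119 to 163313710), a homeodomain factor of limb and stromal mesenchyme, had 10.7, 4.30, 6.36, 17.9 and 21.6 CPM among sgNT tumors and 15.1, 11.6, 24.4, 3.15 and 14.8 CPM in sgCda tumors. Each group held a wide span, 5.03-fold within sgNT (4.30 to 21.6 CPM) and 7.73-fold within sgCda (3.15 to 24.4 CPM). For Prrx1 the log2 fold change was 0.18 (SE 0.52, 95% CI from -0.95 to 1.31), and its direction turned without sgNT replicate 2 (-0.031) or without sgCda replicate 3 (-0.12).

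**Figure D1:**
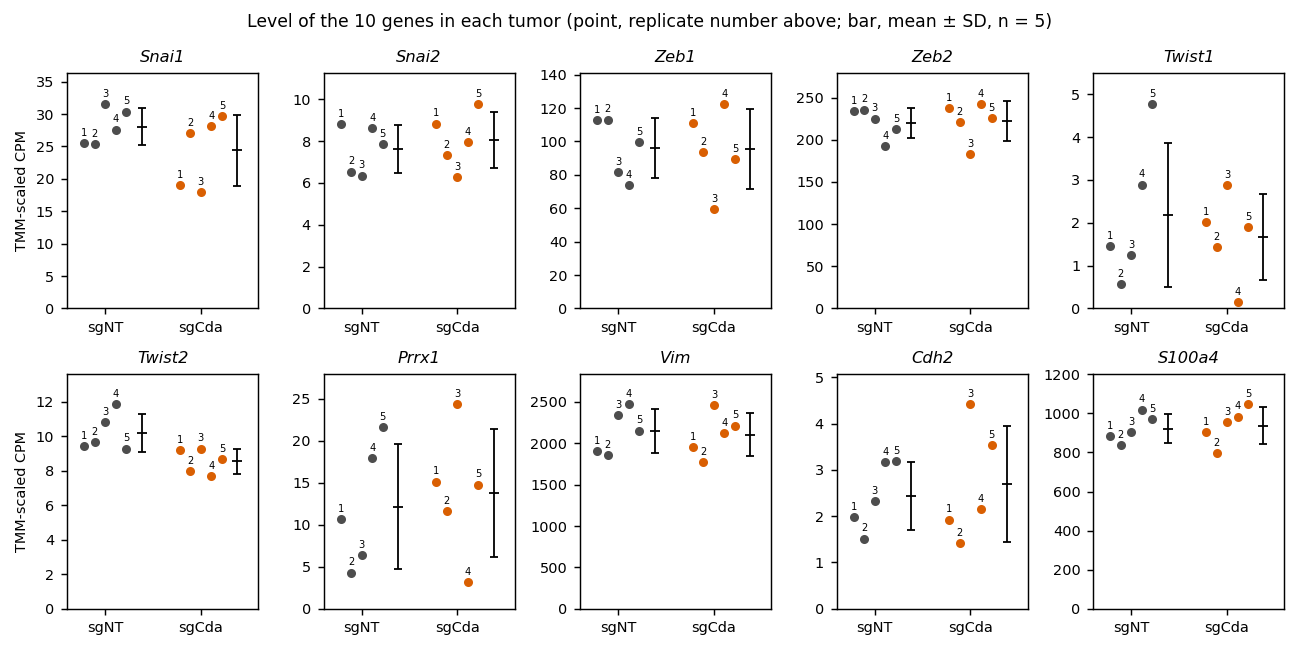
CPM of each of the 10 genes in every tumor, with 1 panel per gene, sgNT tumors on the left and sgCda tumors on the right of each panel, and mean ± SD as bars (n = 5). Twist2 alone has no overlap between the groups, by 9.30 against 9.29 CPM on this scale and not on the other scalings tried, while Twist1 and Prrx1 spread 33.7-fold and 7.73-fold over the tumors (8.40-fold and 5.67-fold without sgCda replicate 4).

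Among the effector genes, Vim (ENSMUSG00000026728, GRCm38 chromosome 2, 13573927 to 13582826), which encodes the intermediate filament protein vimentin, was abundant in every tumor. It reached 1905, 1861, 2344, 2473 and 2155 CPM among sgNT and 1957, 1777, 2464, 2119 and 2215 CPM among sgCda tumors. The sgCda tumors spanned nearly the same range as the sgNT tumors. Accordingly, the log2 fold change lay at -0.028 (SE 0.12, 95% CI from -0.29 to 0.23).

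S100a4 (ENSMUSG00000001020, GRCm38 chromosome 3, 90603771 to 90606045), a small calcium-binding protein gene also known as a fibroblast marker and made by macrophages and T cells, was the steadiest. Its levels were 882, 838, 905, 1019 and 969 CPM among sgNT and 904, 797, 953, 984 and 1047 CPM among sgCda tumors. The groups overlapped throughout, with a log2 fold change of 0.022 (SE 0.090, 95% CI from -0.18 to 0.22). An annotated transcript on the same strand, Gm42674, shares 302 of its 584 exonic bases. Reads that overlap more than 1 gene are left out by HTSeq, so the level of S100a4 is a lower estimate if the annotation used by the authors held Gm42674, which was not analysed here.

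Cdh2 (ENSMUSG00000024304), the gene of the adhesion protein N-cadherin, was low, at 1.99, 1.52, 2.33, 3.17 and 3.19 CPM among sgNT and 1.93, 1.41, 4.42, 2.16 and 3.54 CPM among sgCda tumors. Both the lowest and the highest tumor, replicates 2 and 3, were in the sgCda group. A log2 fold change of 0.14 resulted (SE 0.33, 95% CI from -0.58 to 0.87), which became -0.11 without sgCda replicate 3. Against Cdh1, the epithelial cadherin, Cdh2 was lower in every tumor per kilobase, with a mean log2 ratio of -3.72 ± 0.44 for sgNT and -3.47 ± 0.81 for sgCda (SD, n = 5, exact permutation p = 0.571, adjusted p = 0.818).

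Put together, 5 of the 10 genes had a positive and 5 a negative log2 fold change, with a median of -0.0019, beside 8094 positive, 7205 negative and a median of 0.0078 over all 15299 genes. At an adjusted p under 0.05, 0 of the 10 were called by edgeR, beside 0.00% of all genes, and DESeq2 and limma-voom also called 0. At an unadjusted p under 0.05, 1 of the 10 passed in edgeR, beside 2.50% of all genes. DESeq2 and limma-voom, run on the same counts, also had 1, beside 433 and 317 of all genes, and it was Twist2 each time. The median size of the log2 fold change was 0.11 for the 10 genes and 0.078 for all genes. The intervals differed widely in what they allow. For Zeb2 and S100a4 the 95% CI left no room for a change beyond 0.22 on the log2 scale, whereas for Twist1 and Prrx1 it reached 0.95 or more in size on both sides.

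**Figure D2:**
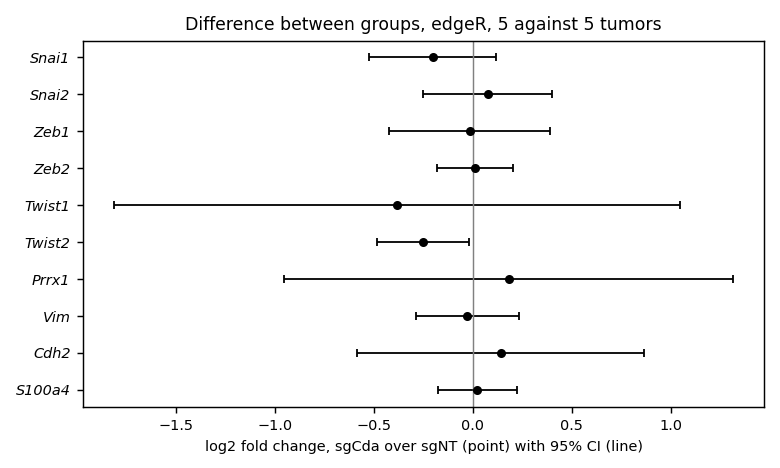
The log2 fold change of sgCda over sgNT (points) with its 95% CI (lines) from edgeR for each of the 10 genes, 5 against 5 tumors. All intervals cross 0 except that of Twist2, from -0.49 to -0.020, and those of Twist1, Prrx1 and Cdh2 are the widest.

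Between genes, levels can be compared only per length, and on the scale of CPM per kilobase of exon the 10 genes covered more than 3 powers of 10. S100a4 stood at 1592 and Vim at 448 CPM per kilobase on average over the 10 tumors, higher than 99.9% and 99.5% of the 14709 tested genes with an annotated length. The factors were far lower. Snai1 stood at 16.2, Zeb2 at 11.1 and Zeb1 at 9.33 CPM per kilobase, and their ranges over tumors overlapped from neighbor to neighbor, although Zeb2 was above Zeb1 in 10 of 10 tumors and Snai1 above Zeb2 in 9 of 10. Snai2 followed at 3.88 and Twist2 at 2.96 CPM per kilobase, also with overlapping ranges. Twist1 and Prrx1 were level with each other at 1.19 and 1.17 CPM per kilobase, Twist1 being the higher of them in 3 of 10 tumors. Cdh2 was the lowest at 0.318 CPM per kilobase, above 10.1% of genes. Ranges without overlap separated S100a4 from Vim, Vim from Snai1, and Zeb1 from Snai2. The length was the union of all annotated exons of a gene, such as 19.9 kb for Zeb2 and 1.62 kb for Snai1. This divisor was the same in every tumor, and which transcripts were in use was not measured. These are levels of the whole tumor and do not tell which cells held the transcripts.

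**Figure D3:**
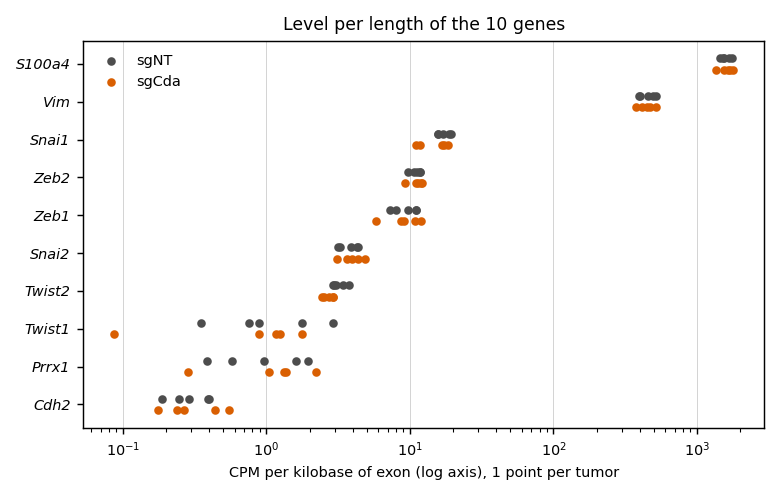
CPM per kilobase of exon on a log axis for the 10 genes, ordered by their mean, with 1 point per tumor and the groups in separate rows of points. S100a4 and Vim stand apart on the right, Twist1 and Prrx1 overlap fully, and Cdh2 is lowest.

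The spread between tumors of a group also differed by gene. The biological coefficient of variation fitted by edgeR was 0.11 for S100a4 and for Zeb2, at the 21.2 and 22.7 percentile of all genes tested, and 0.13 for Vim. Twist1 (0.71), Prrx1 (0.56) and Cdh2 (0.38) were more variable than 98.2%, 96.6% and 89.3% of all genes tested. Counting error alone would give Twist1 and Cdh2 a coefficient of about 0.12 and 0.11, so most of their spread was between tumors. The SD of log2 CPM was larger in sgCda than in sgNT tumors for 8 of the 10 genes, and it was for 11863 of the 15299 genes, so this direction was shared with the table as a whole.

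Some of the 10 genes varied together from tumor to tumor. Twist1 and Prrx1 were the closest pair, both with their 3 highest levels in sgNT replicates 4 and 5 and sgCda replicate 3, and their lowest in sgCda replicate 4 and then sgNT replicate 2. Over the 10 tumors, Pearson's r of their log2 CPM was 0.94 (permutation p = 1e-05, the smallest that 100000 resamples can give, adjusted p = 0.00045 over the 45 pairs of the 10 genes) and Spearman's rho was 0.95 (permutation p = 0.00013, adjusted p = 0.00585). Without the 2 tumors farthest from the median of Twist1, sgNT replicate 5 and sgCda replicate 4, r was 0.96, and with the group means removed it was 0.98. The promoter windows printed above for these 2 genes held no E-box of the letters searched and differed in CpG content, with 18 against 4.

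Zeb1 and Zeb2 were the next pair, with r = 0.91 (permutation p = 0.00025, adjusted p = 0.00563) and rho = 0.85 (permutation p = 0.00301, adjusted p = 0.0452). This relation rested in part on sgNT replicate 4 and sgCda replicate 3, the tumors with the lowest Zeb1, since without them r was 0.69 (permutation p = 0.0609). Cdh2 varied with Vim (r = 0.87, permutation p = 0.00202, adjusted p = 0.0303, rho = 0.85, adjusted p = 0.0452) and with S100a4 (r = 0.82, permutation p = 0.00394, adjusted p = 0.0443, rho = 0.79, adjusted p = 0.0977). Without the 2 farthest tumors these were 0.83 and 0.90. No pair of a ZEB gene and an effector passed adjustment. For Vim and Zeb1 r was -0.74 (permutation p = 0.0136, adjusted p = 0.102) and for Cdh2 and Zeb2 it was -0.71 (permutation p = 0.0195, adjusted p = 0.119), whereas S100a4 gave -0.29 with Zeb1 and -0.33 with Zeb2 (adjusted p of 0.673 and 0.667). Snai1 and Snai2 (r = 0.15) and Twist1 and Twist2 (r = 0.45) showed no relation that passed the test. In all, 4 of 45 pairs passed adjustment by Pearson's r and 3 by Spearman's rho. This set of pairs was chosen after the levels had been seen, and all genes of a tumor share that library's scaling. The share of pairs of other genes that would pass in the same way was not computed. These counts are therefore not shown to be particular to the listed genes.

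**Figure D4:**
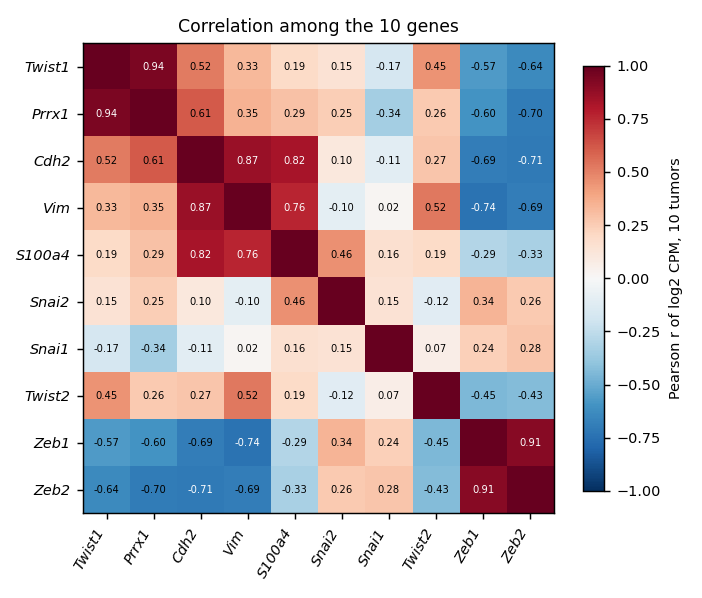
Pearson's r of log2 CPM over the 10 tumors for each pair of the 10 genes, from -1 (blue) to 1 (red). Twist1 with Prrx1 (0.94), Zeb1 with Zeb2 (0.91) and Cdh2 with Vim (0.87) and S100a4 (0.82) are the 4 pairs that passed adjustment.

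The same variation was set beside marker genes of other cells in the tumor. The fibroblast list had 11 of 11 genes above the count filter and none at 0, and its summed level ran from 3527 to 7778 CPM in sgNT and from 4093 to 6389 CPM in sgCda tumors. Its score, the mean log2 CPM of the list, was lowest in sgCda replicate 4 (6.35) and highest in sgNT replicate 5 (8.01), the tumors at the ends of the Twist1 range. Twist1 varied with it over the 10 tumors with r = 0.91 (permutation p = 0.00043, adjusted p = 0.0237 over 60 pairs of a gene and a score), although 4 of the 11 genes of the list had a negative r with Twist1. With the score, r was 0.91 within the sgNT and 0.92 within the sgCda tumors. Prrx1 gave r = 0.87 with the same score (permutation p = 0.00079, adjusted p = 0.0237), and 0.93 and 0.87 within the groups.

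The genes of the fibroblast list did not move as one, and each was set beside Twist1 after this had been seen, as a description with no test. Over the 10 tumors 7 of the 11 had a positive and 4 a negative r with Twist1, and the same held for Prrx1. Postn (0.97), Col1a2 (0.97) and Fap (0.88) were high where Twist1 was high, while Dcn (-0.46), Pdgfra (-0.37), Pdgfrb (-0.36) and Lum (-0.13) were not. In sgCda replicate 4, with the lowest Twist1, Col1a2 was at 23.0 and Postn at 12.5 CPM, the lowest of all tumors, but Dcn was at 2422 CPM. In sgCda replicate 3, Col1a2 was at 1049 CPM and Dcn, Pdgfra, Pdgfrb and Lum were at their lowest, with 614, 41.0, 117 and 89.5 CPM. The score thus followed its collagen and Postn genes more than the list as a whole, with r of 0.94 for Col1a2, 0.96 for Postn and -0.16 for Dcn.

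By rank, the relations with the fibroblast score were weaker. Spearman's rho was 0.85 for Twist1 (permutation p = 0.00299, adjusted p = 0.0936) and 0.75 for Prrx1 (permutation p = 0.0179, adjusted p = 0.269). Without the 2 tumors farthest from the median score, sgNT replicate 5 and sgCda replicate 4, r was 0.70 for Twist1 (permutation p = 0.0453, adjusted p = 0.544) and 0.76 for Prrx1 (permutation p = 0.0308, adjusted p = 0.544). Neither passed adjustment, with fewer tumors in the test. Without sgNT replicate 2 alone 0 pairs passed adjustment either, although r stayed at 0.90 for Twist1 and 0.87 for Prrx1. Leaving out sgCda replicate 4 gave the lowest r of any single tumor, 0.82 for Twist1 and 0.77 for Prrx1, also with 0 pairs passing. Twist1 also varied with the endothelial score (10 of 10 genes above the filter, summed level from 144 to 211 CPM in sgNT and from 129 to 212 CPM in sgCda tumors), with r = 0.79 (permutation p = 0.0016, adjusted p = 0.032) and rho = 0.85 (adjusted p = 0.0936). In all, 8 of the 60 pairs had an unadjusted p under 0.05 and 3 passed adjustment. The 5 that did not were Prrx1 with the endothelial score (r = 0.78, permutation p = 0.00816, adjusted p = 0.122) and 4 negative pairs. These were Zeb1 with the T cell score (r = -0.71, permutation p = 0.0220), Zeb2 with the endothelial score (r = -0.68, permutation p = 0.0279) and Snai2 with the T cell score (r = -0.68, permutation p = 0.0283), each at an adjusted p of 0.242, and Zeb1 with the macrophage score (r = -0.64, permutation p = 0.0465, adjusted p = 0.304). The library of sgCda replicate 4, lowest in Twist1, Prrx1 and both scores, was also the one with the highest mitochondrial share, and the part of RNA quality in these levels was not tested. The tumor lowest in Zeb1 and Zeb2, sgCda replicate 3, had the highest macrophage, T cell, endothelial and skeletal muscle scores. With the muscle score, r was -0.62 for Zeb1 (permutation p = 0.0551, adjusted p = 0.304) and -0.57 for Zeb2 (permutation p = 0.0926, adjusted p = 0.428). The part of tissue content in these levels was not tested. How many other genes would pass with the same scores was not computed. The counts of pairs with a score are therefore not shown to be particular to the 10 genes.

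**Figure D5:**
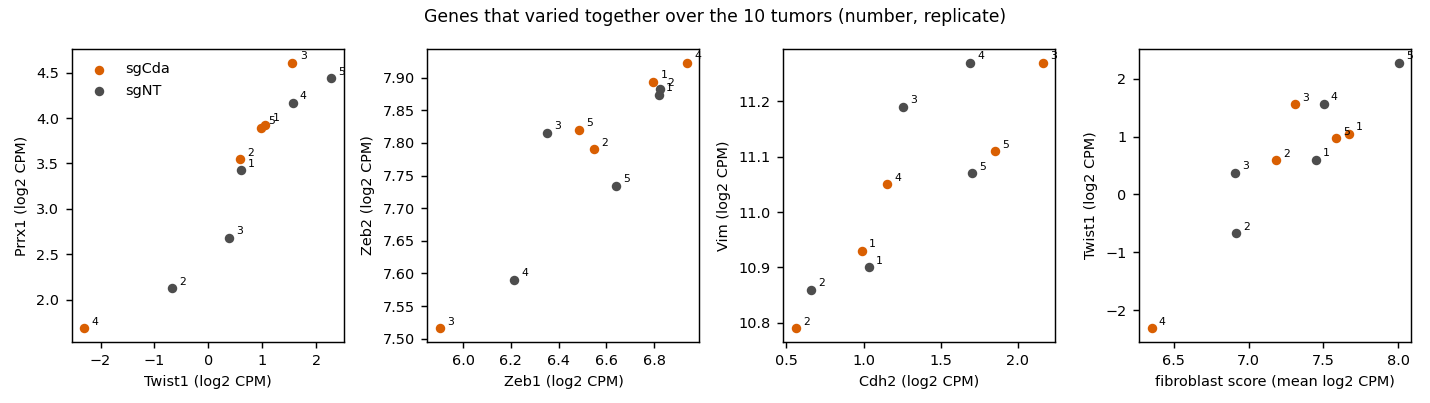
From left to right, Prrx1 against Twist1, Zeb2 against Zeb1, Vim against Cdh2, and Twist1 against the fibroblast score, all in log2 CPM, with 1 point per tumor and the replicate number beside it. The relation is positive in each panel (r from 0.87 to 0.94), and sgCda replicate 4 sits at the low end for Twist1 and Prrx1. Of the genes in the fibroblast score, 7 had a positive and 4 a negative r with Twist1.

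No gene of the macrophage and T cell lists, all above the count filter, passed an unadjusted p under 0.05 between the groups. All 9 T cell genes had positive log2 fold changes (median 0.11). Of the 10 macrophage genes, 3 were positive and 7 negative (median -0.029). The macrophage genes summed to between 5219 and 8016 CPM in sgNT and between 4954 and 8446 CPM in sgCda tumors, and the T cell genes to between 307 and 486 CPM and between 221 and 723 CPM. Leukocytes also make S100a4, Vim and Zeb2. With the macrophage and T cell scores, r was -0.53 and -0.63 for Zeb2, -0.33 and -0.33 for S100a4, and 0.20 and 0.28 for Vim, and none of these passed adjustment (the lowest adjusted p was 0.304).

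Other genes of the transition were read from 6 lists with 68 genes, of which 56 passed the count filter and none had an adjusted p under 0.05. Of the 12 other transcription factors, 11 were tested, 7 with positive and 4 with negative log2 fold changes (median 0.017). One of them passed an unadjusted p under 0.05, beside 1.54% of all genes with a higher level in sgCda. Tcf4, which encodes the E2-2 partner of TWIST proteins, had 119, 121, 107, 107 and 114 CPM in the sgNT tumors, and 149, 131, 114, 193 and 148 CPM in sgCda tumors. Only sgCda replicate 3 fell inside the sgNT range, and the log2 fold change was 0.37 (SE 0.12, edgeR unadjusted p = 0.0105, adjusted p = 0.9996).

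The 8 corepressors that SNAI and ZEB proteins recruit were all tested and had a median log2 fold change of -0.010, with 0 at an unadjusted p under 0.05. The extremes were Hdac2, a histone deacetylase (0.099), and Sin3a, a scaffold of deacetylase complexes (-0.048). The 8 genes of TGF-β signaling, the best known inducer of the transition, also had 0 (median -0.028), and Tgfb2, one of the ligands, had the largest difference, with means of 3.77 ± 0.49 CPM for sgNT and 4.86 ± 1.31 CPM for sgCda (SD, n = 5, log2 fold change 0.37, edgeR unadjusted p = 0.0838).

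Of 15 further mesenchymal effectors, 13 had a negative log2 fold change, but none passed an unadjusted p under 0.05 and the median was -0.089. The list held genes such as Fn1, a matrix fibronectin (481 CPM per kilobase), and Lgals1, a galectin (2462 CPM per kilobase). Mmp2, a matrix metalloproteinase, had the lowest log2 fold change of the list at -0.26 (SE 0.23, edgeR unadjusted p = 0.287), followed by Tagln, an actin-binding protein gene, at -0.22 (SE 0.54).

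On the epithelial side, levels differed widely between genes. Krt8 and Krt18, the keratin pair of simple epithelia, stood at 237 and 159 CPM per kilobase, and Tjp1, a tight junction scaffold that other cells also make, at 71.2. Krt19 stood at 8.28, Cdh1 at 3.74 and Epcam, an epithelial adhesion gene, at 0.638 CPM per kilobase. Of 15 genes of epithelial structure 11 were tested, and Cldn4, Dsp, Rab25 and Crb3 were under the count filter. Epcam was the 1 gene of the list with an unadjusted p under 0.05, beside 1.54% of all genes with a higher level in sgCda. It had 1.25, 0.979, 0.930, 0.911 and 1.08 CPM among sgNT and 1.40, 3.43, 1.01, 1.31 and 1.71 CPM among sgCda tumors. Replicate 3 of sgCda was inside the sgNT range and replicate 2 was far above the rest (log2 fold change 0.78, SE 0.32, edgeR unadjusted p = 0.0305, adjusted p = 0.9996). The mean log2 CPM of the tested genes of this list was also highest in sgCda replicate 2 (3.64). That tumor also had the highest level of each gene of the adipocyte list except Lep, such as Adipoq at 44.5 CPM. The part of other tissue in its Epcam level was not tested. Cdh1 averaged 18.2 ± 3.02 CPM for sgNT and 16.0 ± 2.23 CPM for sgCda (SD, n = 5, log2 fold change -0.18, edgeR unadjusted p = 0.198).

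Of 10 regulators that hold cells in the epithelial state, 7 were under the count filter, namely Esrp1, Esrp2, Grhl2, Grhl3, Ovol2, Elf3 and Ehf, none of them above a mean of 0.331 CPM over the tumors. The 3 that were tested, Klf5, Grhl1 and Ovol1, had positive log2 fold changes with none at an unadjusted p under 0.05. Klf5, an epithelial zinc-finger factor, was highest with means of 10.7 ± 0.69 CPM for sgNT and 14.4 ± 4.76 CPM for sgCda (SD, n = 5, log2 fold change 0.43, edgeR unadjusted p = 0.0533), and Grhl1 had a log2 fold change of 0.38.

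The genes whose pattern over the 10 tumors was most like each of the 10 were looked up among all genes tested, by Pearson's r of log2 CPM and with no test, since they were picked for a high r. Those most like Twist1 were Gpx7 (0.99), Aspn (0.98) and Sfrp4 (0.98), and those most like Prrx1 were Gpx3, Ror2 and Mmp23 (0.99 each). Aspn and Sfrp4 encode secreted proteins of connective tissue, and Ror2 encodes a WNT5A receptor. Most like Zeb1 were Ccdc157 (0.99), Rnf43 and Sned1 (0.98 each), and most like Zeb2 were Syt12, Enpp2 and AW549877 (0.97 each). For Vim these were Fcrlb (0.96), Pthlh (0.95) and Ugdh (0.95), and for Cdh2 Rhpn2 (0.96), Elfn1 (0.95) and Anapc5 (0.95). The closest genes reached 0.92 for Snai1 (Tmem62, then Gmppa and Nr1h2), 0.87 for Snai2 (Hddc2, then Mdga1 and Mtx2), 0.93 for Twist2 (Rap1gap2, Rnf26 and Cd109) and 0.93 for S100a4 (Grasp, Zfp180 and 6330403L08Rik).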

How the data were processed

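The authors sequenced polyadenylated RNA of whole s.c. tumors (KAPA stranded kit, first 50 bases of each fragment), trimmed adapters, aligned to GRCm38/mm10 with TopHat and Bowtie, and counted reads per Ensembl gene with HTSeq. The strand setting and annotation release were not given in the sources used here. The values used are the deposited counts, whole numbers with no normalization; 5 summary lines were left out. Groups and their replicates were read from titles, which do not say more about the animals, so p-values measure the spread between these samples. Replicate libraries differed by more than counting noise.

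Genes were filtered with filterByExpr (minimum count 10, minimum total 15), scaled with TMM and compared by edgeR's quasi-likelihood test (edgeR 4.0.16, R 4.3.3; two-sided, all 10 tumors, Benjamini-Hochberg over 15299 genes). SE and CI were computed from the F statistic. Log2 CPM used a prior count of 2. Ratios were compared by exact permutation and correlations by 100000 permutations (scipy 1.17.1). Exon lengths and positions are from GENCODE M21 on GRCm38. Scripts were tested on simulated data. DESeq2 1.42.0, limma 3.58.1 (voom), other scalings and filters, a replicate block and leaving out tumors were the alternatives.

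The 10 genes and all lists were chosen with earlier results of these data known. Genes named are the 10, Cda, those of each list with an unadjusted p under 0.05 or else the largest differences, the most abundant ones per kilobase, and the 3 most alike in pattern. Intervals on counts cover counting error only.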

Additional observations from a re-analysis of the deposited data

Results flagged for a closer look

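In groups of 5 tumors, 40 sets of values were screened for a tumor far from the other 4, where chance alone would single out about 2, and 3 stood apart. Twist1 in sgCda replicate 4 was at -2.31 on the log2 CPM scale, against 0.59 to 1.56 in the other sgCda tumors. The log2 ratio of Twist1 to Twist2 in the same tumor was -4.30, against -1.46 to -0.70, and it rests on the same 4 reads of Twist1. The T cell score of sgNT replicate 3 was 5.35, against 4.76 to 4.91 in the other sgNT tumors.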

How the results depend on the processing

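No gene, among the 10, the related lists or the whole table, reached an adjusted p under 0.05 in any of 19 other fits. All genes at an unadjusted p under 0.05 numbered 382, but 830 when genes with at least 1 count in any tumor were kept, and 280 to 747 when 1 tumor was left out (747 without sgCda replicate 3). In the related lists there were 2 such genes, 1 with limma-voom, 4 without sgCda replicates 3 and 4 (added after seeing the data), and 1 to 5 when 1 tumor was left out. Among the 10 genes there was 1, Twist2, in 13 of the 19 fits, and 0 or 1 when 1 tumor was left out. Twist2 kept its sign in all 19, as did Snai1. Replicate numbers did not pair the tumors: the deviations of same-numbered tumors correlated between -0.43 and 0.34, and 3 of 10 tumors correlated best with their own number. With a replicate block, the count among the 10 genes was 0. The p of Twist2 from edgeR was then 0.0799.

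Signs turned in some fits for all but Snai1 and Twist2. Zeb2 was -0.0074 with at least 1 count in any tumor, and without sgCda replicates 3 and 4 the log2 fold changes were -0.094 for Cdh2, 0.023 for Zeb1 and -0.012 for S100a4. Leaving out 1 tumor at a time gave -0.091 to 0.030 for Vim, -0.11 to 0.31 for Cdh2, -0.12 to 0.11 for Zeb1, -0.038 to 0.074 for Zeb2, -0.0063 to 0.15 for Snai2, -0.67 to 0.13 for Twist1, -0.12 to 0.49 for Prrx1 and -0.020 to 0.078 for S100a4. The differences in log2 ratio ran from -0.11 to 0.044 for Zeb1:Zeb2, from -0.39 to -0.18 for Snai1:Snai2, from -0.56 to 0.43 for Twist1:Twist2 and from -0.0017 to 0.49 for Cdh2:Cdh1. The cause was not tested. Twist1 gave no value with at least 10 counts in every tumor, since sgCda replicate 4 had 4.

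Of the pairs of a gene and a marker score, 3 passed adjustment, 0 with the median in place of the mean as score, 0 without the 2 farthest tumors, and 0 to 4 when 1 tumor was left out. With the median, r was 0.59 for Twist1 and 0.50 for Prrx1 with the fibroblast score, and 0.71 for Twist1 with the endothelial score. Depth limits Twist1 and Cdh2 most, where 3 reads correspond to between 0.0760 and 0.107 CPM.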

Other observations

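Markers of tissues around an s.c. graft also varied between tumors. Summed skeletal muscle genes, which encode contractile and energy proteins of muscle fibers, ran from 6.16 to 539 CPM in sgNT and from 5.79 to 2166 CPM in sgCda tumors, and adipocyte genes from 60.4 to 229 and from 52.5 to 775 CPM. All 9 muscle genes tested had positive log2 fold changes (median 1.65), with 0 at an unadjusted p under 0.05 by edgeR. Pericyte genes ran from 188 to 277 and from 107 to 263 CPM, and all 5 had negative log2 fold changes (median -0.11, with 0 at an unadjusted p under 0.05). Keratinocyte genes ran from 4.28 to 19.9 and from 3.44 to 5.53 CPM, and only Krt10 passed the count filter. Krt5, Krt14, Krt1, Krt15 and Krt10 were highest in sgNT replicate 4, with Krt5 at 1.95 CPM against at most 0.248 CPM elsewhere. That tumor also had the highest Twist2 level (11.9 CPM). Without it the log2 fold change of Twist2 was -0.20 (edgeR unadjusted p = 0.0975). The part of skin in its Twist2 level was not tested.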
